A study of Homo sapiens with 8 samples.

Results

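The 10 long noncoding RNAs described here are 7 hosts of small nucleolar RNAs (GAS5, SNHG1, SNHG5, SNHG6, SNHG8, SNHG12 and ZFAS1) and 3 RNAs that stay in the nucleus (MALAT1, NEAT1 and KCNQ1OT1). They were taken by gene symbol from 58302 annotated genes quantified by RNA sequencing in 8 libraries of A549, an established human lung adenocarcinoma cell line. No cut-off on a measured value was used, but the choice was made with earlier results of these data known. The 4 groups of 2 libraries were A549 cells with a short hairpin RNA against the receptor tyrosine kinase AXL (AXL shRNA), A549 cells with a control hairpin (control shRNA), A549 cells given 40 nM TP-0903, a small-molecule AXL inhibitor, and A549 cells labelled control. The series asked which pathways could let lung cancer cells resist TP-0903. The titles also carry a number after the letter P, with P15 and P3 for the hairpin groups and P17 and P4 for the drug groups. No source used here says what P stands for, which vehicle the controls had, how long the drug was given, what the hairpin sequences were, or whether a hairpin group is a single clone. All 10 RNAs were above 0 in all 8 libraries and passed the filter on low counts.

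Small nucleolar RNAs (snoRNAs) guide chemical modification of ribosomal RNA, and most human ones are cut out of introns of a host gene. The spliced exons of hosts such as GAS5 leave the nucleus, often start with the pyrimidine tract that ties translation of ribosomal protein messages to growth signalling, and are destroyed by nonsense-mediated decay while they are translated. MALAT1 lies at nuclear speckles, the long form of NEAT1 is the scaffold of paraspeckles, and KCNQ1OT1 is an imprinted antisense RNA that silences neighbouring genes on its own chromosome.

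The first bases of the hosts are shown because a cytosine followed by pyrimidines at base 1 is the mark of such a translation-controlled start. The start of SNHG6 is not printed, though it has transcripts of this kind. The transcripts are those of GENCODE release 29 on GRCh38. Capitals mark a C at base 1 followed by at least 4 bases that are each C or T, up to the first purine, on the transcript's own strand. Each stretch lies in the first exon and is the transcript of lowest number that starts in this way.
GAS5-210, chr1:173867960-173867989, minus strand: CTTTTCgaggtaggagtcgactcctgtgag
ZFAS1-201, chr20:49278642-49278681, plus strand: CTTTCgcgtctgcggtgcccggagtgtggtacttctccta
SNHG8-205, chr4:118278758-118278792, plus strand: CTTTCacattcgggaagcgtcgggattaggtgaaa
SNHG5-202, chr6:85678694-85678733, minus strand: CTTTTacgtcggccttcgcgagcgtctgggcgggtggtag
SNHG1-203, chr11:62855440-62855479, minus strand: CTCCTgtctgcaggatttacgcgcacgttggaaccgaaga
SNHG12-202, chr1:28581834-28581873, minus strand: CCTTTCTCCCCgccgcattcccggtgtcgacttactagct

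Such a start was annotated for 20 of the 108 transcripts of the 7 hosts (18.5%), against 4975 of all 206534 GENCODE transcripts (2.41%). Each of the 7 hosts had at least 1 transcript of this kind, against 20.8% of the 12894 genes with 5 or more transcripts. GAS5 had 6 among 29 transcripts, SNHG6 had 3 among 5, and SNHG1 had 1 among 25. None of the 24 transcripts of MALAT1, NEAT1 and KCNQ1OT1 started so. These are counts of annotated ends, and which transcripts A549 cells use was not measured.

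The 3′ ends of MALAT1 and of the long NEAT1 transcript are shown because an encoded element takes the place of a poly(A) tail there, and the NEAT1 result below turns on that transcript. In MALAT1 and in the long NEAT1 transcript, a pair of U-rich stretches and a genome-encoded A-rich stretch fold into a triple helix that protects the end left when a transfer-RNA-like RNA is cut off. Capitals mark TTTCTTTT, TTTGCTTTT and AAAAGCAAA in this order with at most 60 bases between neighbours, searched on the transcript strand.
NEAT1-202, the last 120 bases, chr11:65445421-65445540, plus strand: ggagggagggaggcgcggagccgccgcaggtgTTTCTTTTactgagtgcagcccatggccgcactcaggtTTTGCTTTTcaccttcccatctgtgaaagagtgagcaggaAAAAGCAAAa
MALAT1-202, 120 bases that end 352 bases before the annotated end, chr11:65505998-65506117, plus strand: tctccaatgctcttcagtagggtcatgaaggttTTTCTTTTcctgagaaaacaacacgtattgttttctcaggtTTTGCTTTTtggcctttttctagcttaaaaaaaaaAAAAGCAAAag

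Of 206534 GENCODE transcripts, 2 held the 3 motifs in this arrangement, and they are the 2 printed above (0.00097%). The motifs were written from the known MALAT1 and NEAT1 elements, so the count describes the pattern and is no search for it. The labels name total RNA and do not say whether poly(A) selection was used.

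Between 30067011 and 44217023 expected counts were deposited per library. CPM are counts scaled to the library total over tested genes, adjusted by TMM scaling. TPM are scaled for transcript length and depth. Fold changes are on the log2 scale of CPM. Their standard error (SE) is the size of the change divided by the square root of the edgeR F statistic. It thus follows from the test and is no separate measure of spread. AXL itself, the target, had 55.4 and 63.0 CPM in AXL shRNA libraries, against 85.1 and 139 CPM in control shRNA libraries. The groups did not overlap, but the change of -0.92 (SE 0.42) missed the threshold (adjusted p = 0.12, edgeR) and passed it with the P number as a block (adjusted p = 8.58e-04). The epithelial markers KRT8 and KRT18 were among the abundant messages of every library. Summed epithelial markers (5 genes) were 23651 and 19988 CPM in AXL shRNA libraries, against 6876 and 6154 CPM in control shRNA libraries. Summed leukocyte markers (4 genes) were 1.73 to 7.72 CPM over the libraries, with PTPRC at most 0.0617 CPM and CD3E at most 0.0302 CPM. CD79A was higher with the AXL hairpin (2.97, adjusted p = 0.00683, edgeR) and CD14 lower (-1.27, adjusted p = 0.0308). Summed endothelial markers (3 genes) were 9.87 and 3.15 CPM in AXL shRNA libraries, against 2.74 and 0.329 CPM in control shRNA libraries. Summed fibroblast markers (4 genes) were 26.4 and 42.4 CPM in AXL shRNA libraries, against 14.3 and 11.3 CPM in control shRNA libraries. Mitochondrial genes took 6.79% and 7.78% of counts in AXL shRNA libraries and 3.94% and 5.17% in control shRNA libraries. They took 5.16% and 5.82% in TP-0903 libraries and 3.68% and 3.58% in control libraries. Whether these differences bear on the long RNAs was not tested. In such bulk libraries fewer cells of a kind and less RNA per cell cannot be told apart, and p-values measure the spread between libraries that the labels call biological replicates.

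Per length, the most abundant of the 10 RNAs was SNHG5, with a mean of 796 TPM over the 8 libraries. ZFAS1 (514 TPM), NEAT1 (424 TPM) and GAS5 (417 TPM) followed, and their ranges over libraries overlapped widely. SNHG6 averaged 204 TPM, SNHG8 148 TPM, SNHG1 119 TPM, MALAT1 81.6 TPM and SNHG12 29 TPM. KCNQ1OT1 was listed at 0.0312 TPM on average, over a single annotated transcript of 91667 bases. Libraries differed most for SNHG8, whose highest CPM was 11.8 times its lowest, and least for MALAT1, at 2.51 times.

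The snoRNA hosts were lower with TP-0903. SNHG1 fell by 3.64-fold, and GAS5, SNHG5, SNHG6, SNHG8 and ZFAS1 fell by between 1.78-fold and 3.02-fold. In all, 6 of the 7 hosts passed the test in the lower direction and none in the higher, where 6.35% of the 17676 genes tested passed as lower and 4.90% as higher. The median change of the 7 hosts was -1.10, against -0.015 for all tested genes. Both TP-0903 libraries lay below both control libraries for all 7 hosts, an order that 30.9% of tested genes showed.

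SNHG1 (ENSG00000255717, chr11:62851988-62855914, minus strand) hosts SNORD22 and the SNORD25 to SNORD31 series. It had 19.7 and 22.4 CPM in TP-0903 libraries, against 65.1 and 88.1 CPM in control libraries. The change was -1.87 (SE 0.21, adjusted p = 0.00247, edgeR), the largest fall of the 7 hosts. It kept its call without any single library.

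SNHG8 (ENSG00000269893, chr4:118278709-118279823, plus strand) hosts SNORA24. It had 6.51 and 8.26 CPM in TP-0903 libraries, against 16.3 and 28.4 CPM in control libraries. The change of -1.59 (SE 0.28, adjusted p = 0.0132, edgeR) was lost without the TP-0903 P17 library (adjusted p = 0.111).

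GAS5 (ENSG00000234741, chr1:173863900-173868882, minus strand) takes its name from growth arrest, in which its spliced RNA accumulates. It had 31.8 and 41.6 CPM in TP-0903 libraries, against 75.1 and 100.4 CPM in control libraries. Both treated libraries held less than any of the other 6 libraries. The change was -1.26 (SE 0.23, adjusted p = 0.0145, edgeR), and it was lost without TP-0903 P17 (adjusted p = 0.116) or control P4 (adjusted p = 0.0751).

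SNHG5 (ENSG00000203875, chr6:85660950-85678748, minus strand), host of the SNORD50 pair, had 45.9 and 58.4 CPM in TP-0903 libraries, against 105 and 119 CPM in control libraries. Its change was -1.10 (SE 0.16, adjusted p = 0.00658, edgeR), and it was lost without TP-0903 P17 (adjusted p = 0.0554). SNHG6 (ENSG00000245910, chr8:66921684-66926398, minus strand), host of SNORD87, had 20.2 and 18.3 CPM in TP-0903 libraries, against 34.0 and 34.7 CPM in control libraries. Its libraries were the closest to each other of any host, and the change of -0.83 (SE 0.11, adjusted p = 0.00428, edgeR) held without any single library.

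ZFAS1 (ENSG00000177410, chr20:49278178-49295738, plus strand), host of the SNORD12 family, starts antisense to the first exon of ZNFX1. It had 35.0 and 48.2 CPM in TP-0903 libraries, against 69.4 and 92.2 CPM in control libraries. The change of -0.96 (SE 0.22, adjusted p = 0.0341, edgeR) was the weakest of the 6 calls, and 5 of the 8 fits without a library lost it, with the highest adjusted p at 0.203 without TP-0903 P17.

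SNHG12 (ENSG00000197989, chr1:28578538-28583132, minus strand), host of SNORA16A, SNORA44, SNORA61 and SNORD99, was the host that did not pass. It had 10.6 and 8.26 CPM in TP-0903 libraries, against 15 and 11.5 CPM in control libraries (change -0.49, SE 0.22, adjusted p = 0.194, edgeR). Each TP-0903 library was below the control library of its P number, at 70.8% and 72.0% of it. With the P number as a block SNHG12 passed as well (adjusted p = 0.031, edgeR), so that 7 of 7 hosts were called lower in that fit, where 13.4% of tested genes were.

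**Figure D1:**
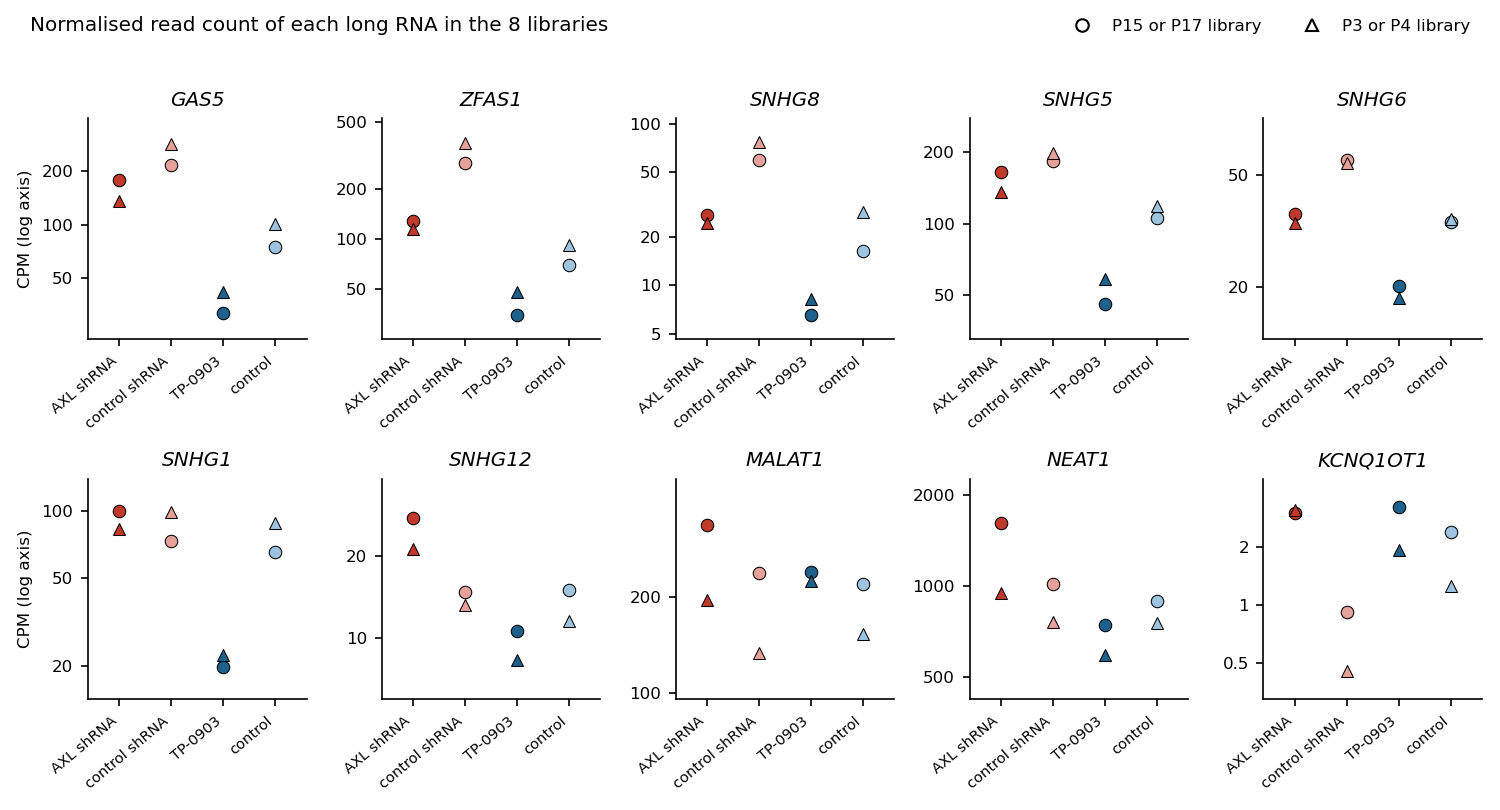
CPM on log axes of each long RNA in the 8 libraries, 1 point per library, circles for P15 or P17 and triangles for P3 or P4. The TP-0903 libraries are the lowest of all for GAS5, ZFAS1, SNHG8, SNHG5, SNHG6, SNHG1 and SNHG12, while the control shRNA libraries are the highest for GAS5, ZFAS1, SNHG8, SNHG5 and SNHG6.

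The hosts did not move as a group with the AXL hairpin. ZFAS1, SNHG8, SNHG6 and GAS5 were lower than in control shRNA libraries, SNHG12 was higher, and SNHG1 and SNHG5 did not pass the test. Against a background of 37.5% of tested genes called (18.5% higher and 19% lower), 4 hosts were called lower and 1 higher. The median change of the 7 hosts was -0.67, against -0.013 for all tested genes.

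ZFAS1 had 128 and 114 CPM in AXL shRNA libraries, against 284 and 377 CPM in control shRNA libraries. The change was -1.45 (SE 0.22, adjusted p = 0.00282, edgeR), 2.74-fold lower. SNHG8 had 27.2 and 24.3 CPM in AXL shRNA libraries, against 59.7 and 77.1 CPM in control shRNA libraries, a change of -1.41 (SE 0.27, adjusted p = 0.00682, edgeR). For both RNAs the control shRNA libraries stood far above all the others.

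SNHG6 had 36.3 and 33.6 CPM in AXL shRNA libraries, against 56.5 and 55.2 CPM in control shRNA libraries. The change of -0.67 (SE 0.11, adjusted p = 0.00333, edgeR) kept its call without any single library, as did those of ZFAS1 and SNHG8. GAS5 had 177 and 136 CPM in AXL shRNA libraries, against 217 and 282 CPM in control shRNA libraries. Its change of -0.67 (SE 0.22, adjusted p = 0.0495, edgeR) stood at the threshold. Leaving out each of the 8 libraries moved it between -0.88 and -0.47, and the call was lost each time. It was also lost with DESeq2 size factors (adjusted p = 0.0552, edgeR) and in the comparison's 4 libraries alone (adjusted p = 0.0591). The call held with effective lengths (-1.02, adjusted p = 0.016, edgeR) and with the P number as a block (adjusted p = 0.00817). It also held in DESeq2 (adjusted p = 0.0223) and on log2 TPM (-1.23, limma), where the median gene moved by -0.15.

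SNHG12 had 27.7 and 21.2 CPM in AXL shRNA libraries, against 14.7 and 13.2 CPM in control shRNA libraries. It was the only host called higher, by 0.81 (SE 0.22, adjusted p = 0.0234, edgeR). The call was lost without AXL shRNA P15 (adjusted p = 0.115), control shRNA P15 (adjusted p = 0.0659) or control shRNA P3 (adjusted p = 0.106). It was also lost on log2 TPM (adjusted p = 0.0599, limma).

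SNHG1 had 100.3 and 83.4 CPM in AXL shRNA libraries, against 73.1 and 98.9 CPM in control shRNA libraries, and the groups overlapped (change 0.10, SE 0.20, adjusted p = 0.738, edgeR). SNHG5 had 165 and 135 CPM in AXL shRNA libraries, against 183 and 197 CPM in control shRNA libraries. Its change of -0.34 (SE 0.16) did not pass (adjusted p = 0.125, edgeR) but did with the P number as a block (adjusted p = 0.036, edgeR), where 26.1% of tested genes were called lower.

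The hairpin controls themselves held more of these hosts than the control cells of the drug experiment. In control shRNA libraries against control libraries, 5 of the 7 hosts were called higher and none lower, where 3.06% of tested genes were called higher and 6.09% lower. ZFAS1 was higher by 2.03 (SE 0.22, adjusted p = 0.0026, edgeR), SNHG8 by 1.62 (SE 0.27, adjusted p = 0.0153), GAS5 by 1.51 (SE 0.23, adjusted p = 0.00966), SNHG5 by 0.76 (SE 0.16, adjusted p = 0.03) and SNHG6 by 0.70 (SE 0.11, adjusted p = 0.01). ZFAS1 alone of the 5 kept its call without any single library, and SNHG6 also lost its call with effective lengths as offsets (0.50, adjusted p = 0.0593). SNHG1 (0.17, adjusted p = 0.643) and SNHG12 (0.07, adjusted p = 0.866) did not pass. The 2 kinds of control also differ in P number (P15 and P3 against P17 and P4), so the hairpin vector and the number cannot be told apart.

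The 4 falls with the AXL hairpin were measured from these raised levels. Set against the control cells of the drug experiment, a comparison added after seeing the data, AXL shRNA libraries were not lower in any host. SNHG6 differed by 0.03 (SE 0.11, adjusted p = 0.867, edgeR), SNHG8 by 0.20 (SE 0.27, adjusted p = 0.582) and ZFAS1 by 0.58 (SE 0.22, adjusted p = 0.0747). GAS5 was higher by 0.83 (SE 0.22, adjusted p = 0.0241) and SNHG12 by 0.88 (SE 0.22, adjusted p = 0.0173), where 17.3% of tested genes were called higher. SNHG12 was the host whose direction with the AXL hairpin was the same against both controls and passed against both.

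**Figure D2:**
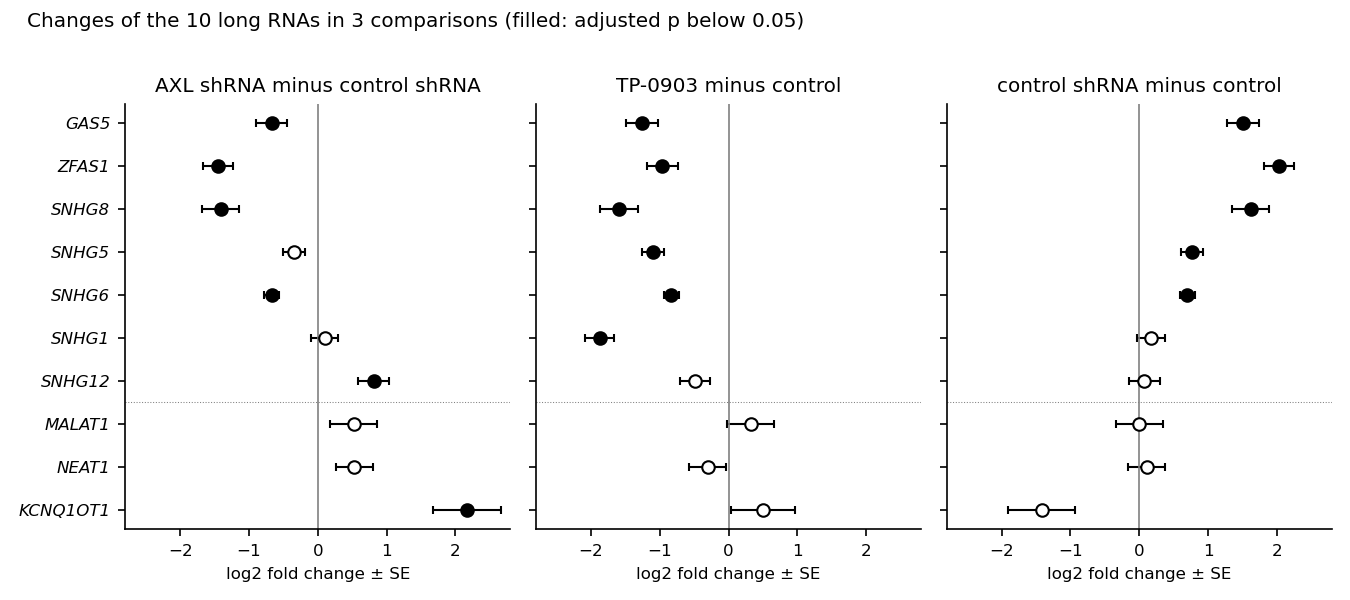
Log2 fold change with its SE for each long RNA in 3 comparisons from the same fit, filled where the adjusted p was below 0.05. In the TP-0903 panel all 7 hosts lie left of 0, and in the control shRNA panel all 7 lie right of 0 with 5 filled; MALAT1 and NEAT1 are open in every panel.

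The drug and hairpin effects differed for SNHG1 and SNHG12. A test of the difference (TP-0903 effect minus AXL shRNA effect) gave -1.96 for SNHG1 (SE 0.29, adjusted p = 0.005, edgeR) and -1.30 for SNHG12 (SE 0.31, adjusted p = 0.0253). These 2 of the 10 RNAs were called lower, where 10.8% of tested genes were, and none was called higher (9.82% of tested genes). SNHG1 kept the call without any single library, while SNHG12 lost it in 5 of the 8 fits without a library. For GAS5 (-0.59, adjusted p = 0.23), SNHG6 (-0.16, adjusted p = 0.498), SNHG8 (-0.18, adjusted p = 0.77) and ZFAS1 (0.49, adjusted p = 0.293) the effects did not differ past the threshold, which does not show that they were alike. With the P number as a block, 5 RNAs passed as lower, where 18.4% of tested genes did: SNHG1, SNHG12, SNHG5 (adjusted p = 0.00864), NEAT1 (adjusted p = 0.00893) and KCNQ1OT1 (adjusted p = 0.021).

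NEAT1 (ENSG00000245532, chr11:65422774-65445540, plus strand) differed in its estimated transcript length with the AXL hairpin. The mean transcript length that RSEM, the authors' quantification program, gave for NEAT1 is weighted by the estimated abundance of its 5 annotated transcripts. It was 5244 and 5023 bases in AXL shRNA libraries, against 2581 and 2711 bases in control shRNA libraries. It was 2732 and 2879 bases in TP-0903 libraries, against 2598 and 2589 bases in control libraries. Both AXL shRNA libraries thus stood apart from the 6 others, which lay between 2581 and 2879 bases. The ratio of means was 1.94, and of 11309 genes averaging 5 CPM or more, 21 (0.186%) had as large a ratio in either direction. A change of at least 1.5-fold with no overlap was seen in 0.973% of these genes with the AXL hairpin and in 0.141% with TP-0903. With 2 libraries against 2, the lowest two-sided p of an exact permutation test is 0.333, so no p is given.

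The long NEAT1 transcript printed above has 22743 bases, and the 4 short ones have 512 to 3524 bases. A mean above 3524 bases cannot come from the short transcripts alone. With these lengths, the long form would make up between 8.95% and 21.3% of NEAT1 molecules in AXL shRNA P15 and between 7.8% and 20.3% in AXL shRNA P3. In the other 6 libraries the mean length allowed any share from 0% up to a limit between 9.31% and 10.6%. These bounds follow from the annotated lengths and from RSEM's assignment of reads to transcripts, which is an estimate.

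Counted in reads and counted per length, NEAT1 had changes of opposite sign with the AXL hairpin. NEAT1 had 1616 and 947 CPM in AXL shRNA libraries, against 1014 and 759 CPM in control shRNA libraries. The groups overlapped, and the change of 0.53 (SE 0.27) did not pass (adjusted p = 0.166, edgeR), though it did with the P number as a block (adjusted p = 0.0105), where 25.6% of tested genes were called higher. In TPM, which divides by the length above, the order was the other way, with 385 and 240.1 TPM in AXL shRNA libraries, against 646 and 420.1 TPM in control shRNA libraries. On log2 TPM the change was -0.77 and did not pass (adjusted p = 0.0729, limma), while the median gene on that scale moved by -0.15. With the deposited effective lengths as offsets it was -0.54 (adjusted p = 0.172, edgeR), so the direction of NEAT1 depends on whether reads or molecules are counted.

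With TP-0903, NEAT1 had 746 and 592 CPM, against 891 and 753 CPM in control libraries. Both treated libraries were below both controls, but the change of -0.30 (SE 0.27) did not pass (adjusted p = 0.531, edgeR).

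**Figure D3:**
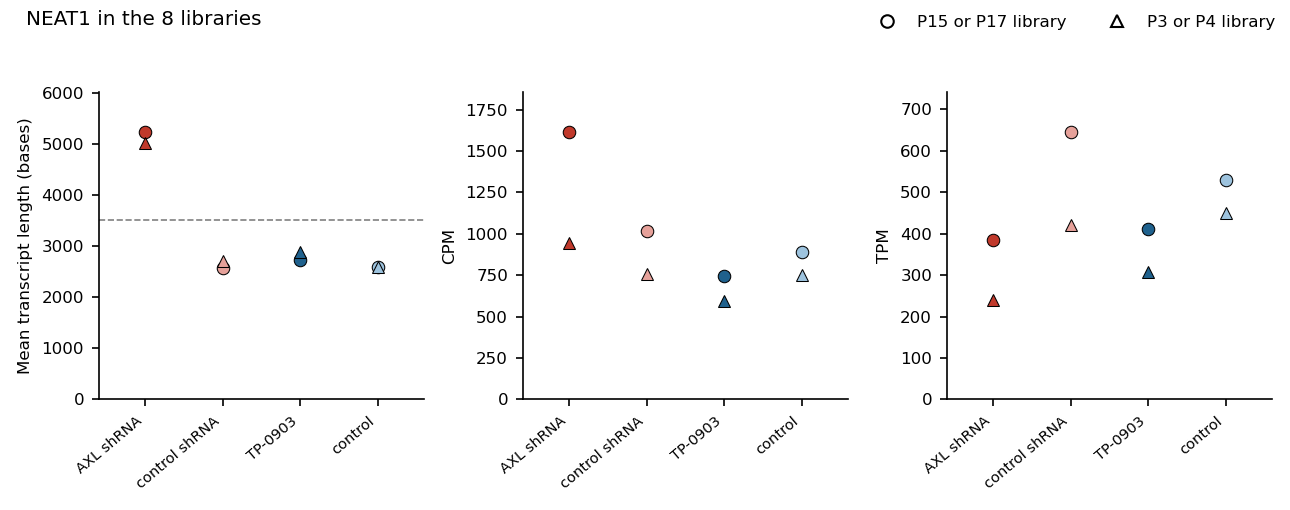
NEAT1 in the 8 libraries: mean transcript length in bases, CPM and TPM, 1 point per library, circles for P15 or P17 and triangles for P3 or P4. The dashed line marks 3524 bases, the longest of the short transcripts, and the AXL shRNA libraries alone lie above it; they are highest in CPM as P15 and lowest in TPM as P3.

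No other member showed a shift of this size. GAS5 had a mean length of 731 and 723 bases in AXL shRNA libraries, against 635 and 636 bases in control shRNA libraries, a ratio of 1.14 that 11.1% of genes matched or passed. SNHG8 had 502 and 487 bases in AXL shRNA libraries, against 561 and 564 bases in control shRNA libraries. MALAT1 lengths overlapped in both comparisons, and KCNQ1OT1 has a single annotated transcript.

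MALAT1 (ENSG00000251562, chr11:65497688-65506516, plus strand) lies downstream of NEAT1 on the same strand. It had 336 and 196 CPM in AXL shRNA libraries, against 238 and 134 CPM in control shRNA libraries, and the groups overlapped. The change of 0.52 (SE 0.34, adjusted p = 0.269, edgeR) did not pass. Each AXL shRNA library was above the control shRNA library of its P number, at 141% and 146% of it, and with the number as a block the change passed (adjusted p = 0.00719, edgeR).

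MALAT1 had 240.3 and 225 CPM in TP-0903 libraries, against 219.9 and 153 CPM in control libraries. The change was 0.32 (SE 0.34, adjusted p = 0.592, edgeR). Another MALAT1 entry of 95 bases and the entry for the transfer-RNA-like RNA cut from its end were at 0 in all libraries.

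KCNQ1OT1 (ENSG00000269821, chr11:2608328-2699994, minus strand) was the scarcest of the 10, with 15 to 130 expected counts per library. It had 3.02 and 3.15 CPM in AXL shRNA libraries, against 0.923 and 0.449 CPM in control shRNA libraries. The groups were far apart, and the change of 2.17 (SE 0.49, adjusted p = 0.0126, edgeR) was 4.49-fold. It was lost without control shRNA P3 (adjusted p = 0.0663), and on log2 TPM, where all its values lie between 0.01 and 0.05 TPM (adjusted p = 0.75 with a pseudocount of 1, limma).

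KCNQ1OT1 also lay low in control shRNA libraries against control libraries, by -1.42 (SE 0.49), which did not pass (adjusted p = 0.115, edgeR). It passed with the P number in 2 levels as a term (-1.41, adjusted p = 0.0378) and without the filter on low counts (adjusted p = 0.00781). Against control libraries, which had 2.41 and 1.26 CPM, AXL shRNA libraries were higher by 0.75 (SE 0.45, adjusted p = 0.234, edgeR, added after seeing the data). TP-0903 libraries had 3.27 and 1.93 CPM and overlapped the controls (change 0.50, SE 0.46, adjusted p = 0.523, edgeR). Its call with the AXL hairpin thus rests on 30 and 15 expected counts in the control shRNA libraries.

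Other genes of the imprinted domain gave mixed values. Of 6 genes tested, 2 were called higher and none lower with the AXL hairpin, where 18.5% of tested genes were higher and 19% lower. With the P number as a block SLC22A18 was lower as well (-0.72, adjusted p = 0.0141, edgeR). PHLDA2, an imprinted growth restrictor, had 82.7 and 83.0 CPM in AXL shRNA libraries, against 13.1 and 16.9 CPM in control shRNA libraries (change 2.47, adjusted p = 5.51e-04, edgeR). It was also the 1 gene of the 6 called with TP-0903 (1.26, adjusted p = 0.0114). NAP1L4 was higher by 0.49 (adjusted p = 0.00872). CDKN1C, a cell cycle inhibitor that the mouse counterpart of KCNQ1OT1 silences, was scarce, at 0.664 and 1.62 CPM in AXL shRNA libraries and 0.584 and 0.15 CPM in control shRNA libraries (adjusted p = 0.0976). KCNQ1, on the opposite strand of KCNQ1OT1, stayed between 0.123 and 0.953 CPM over the libraries.

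The 2 libraries of each group differ in P number. MALAT1, NEAT1 and SNHG12 had more CPM in the P15 or P17 library than in the P3 or P4 library of all 4 groups, an order that 13.7% of tested genes showed. High minus low P number gave 0.56 for MALAT1 (SE 0.13, adjusted p = 0.0503, edgeR), 0.44 for NEAT1 (SE 0.11, adjusted p = 0.0604) and 0.33 for SNHG12 (SE 0.10, adjusted p = 0.113). None of the 10 passed, where 4.92% of tested genes did. At an unadjusted p under 0.05 there were 5, these 3, KCNQ1OT1 (0.62) and ZFAS1 (-0.28), where 18.5% of tested genes lay under it. DESeq2 called MALAT1 and NEAT1, where it called 9.40% of genes, and limma-voom called the same 2, where it called 5.4%. In only the 4 libraries without shRNA, 1419 genes passed. Among them were GAS5 (-0.41, adjusted p = 0.0305, edgeR), SNHG8 (-0.60, adjusted p = 0.0497) and ZFAS1 (-0.44, adjusted p = 0.0218). In only the 4 shRNA libraries, 416 genes passed, among them MALAT1 (0.80, adjusted p = 0.0282, edgeR). The shares of tested genes were not worked out for the fits on 4 libraries, so their member calls cannot be set against a background. GAS5, SNHG1, SNHG5, SNHG8 and ZFAS1 had less CPM in the P15 or P17 library of 3 groups, all but AXL shRNA. How many tested genes share this order was not counted, so it is only a description.

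Related genes show how far the pattern reached. Lists of related genes were written from general knowledge, with earlier results of these data known. The list counts below stand against the shares of all tested genes. These were 6.35% lower and 4.90% higher with TP-0903, and 19% lower and 18.5% higher with the AXL hairpin. Of 19 other snoRNA host long RNAs tested with TP-0903, 6 were called lower and none higher, and all 19 changes were negative, with a median of -0.62. SNHG7 changed by -1.35 (adjusted p = 0.00307, edgeR), SNHG19 by -1.06 (adjusted p = 0.0105) and LRRC75A-AS1, also called SNHG29, by -1.24 (adjusted p = 0.0122). Of 36 protein-coding hosts, 11 were lower and none higher, 33 changes were negative, and the median was -0.45. Among these hosts were RPS3 (-0.79, adjusted p = 0.0105) and RPSA (-0.80, adjusted p = 0.0105), proteins of the small ribosomal subunit, and NOP56 (-0.82, adjusted p = 0.00883), a core protein of snoRNA particles.

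Among the 19 other long hosts 3 were higher and 6 lower with the AXL hairpin, where 18.5% of tested genes were higher and 19% lower. C6orf48, also called SNHG32, had 33.6 and 25.7 CPM in AXL shRNA libraries, against 169 and 203 CPM in control shRNA libraries (-2.65, adjusted p = 5.46e-04, edgeR). It was also higher by 2.18 in control shRNA libraries than in control libraries (adjusted p = 0.00205), the order seen for ZFAS1 and SNHG8. The lists did not share that order. Between these controls 3 of the 19 other long hosts were called higher and 3 lower, with a median of 0.087. Of 36 protein-coding hosts none was called higher and 1 lower, with a median of 0.0059. Of all tested genes 3.06% were higher and 6.09% lower. SNHG19 (1.10, adjusted p = 0.00326), SNHG4 (1.59, adjusted p = 0.00439) and SNHG15 (1.09, adjusted p = 0.00443) were higher with the AXL hairpin, as SNHG12 was. Protein-coding hosts gave 4 higher and 7 lower among 36, with a median of 0.02.

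Another list held 14 genes whose messages start with the same pyrimidine tract, most of them translation factors. With TP-0903, 2 were lower and none higher, with a median of -0.24. They were HNRNPA1 (-1.19, adjusted p = 0.00384, edgeR), a splicing and RNA-binding protein, and TPT1 (-0.74, adjusted p = 0.0288), the translationally controlled tumour protein, and neither is a translation factor. TPT1, EEF1B2, EEF2 and RACK1 of this list are also in the list of protein-coding hosts and were counted there too. The AXL hairpin comparison had 1 higher (EIF3E, 0.42, adjusted p = 0.0285) and 2 lower (EIF4B, -1.20, adjusted p = 0.00255, and EEF1A1, -0.55, adjusted p = 0.0433). Ribosomal protein genes together took 3.1% and 3.43% of counts in TP-0903 libraries, against 4.54% and 4.64% in control libraries. They took 4.79% and 4.27% in AXL shRNA libraries, against 5.03% and 5.7% in control shRNA libraries.

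Most factors of nonsense-mediated decay did not pass the test, and neither did most of all tested genes. Of 14 tested with TP-0903, UPF2 (-0.81, adjusted p = 0.00525, edgeR) and UPF3B (-0.62, adjusted p = 0.0188) were lower and SMG8 higher (0.52, adjusted p = 0.0408). In the AXL hairpin comparison 2 were higher, UPF1 (0.45, adjusted p = 0.00986) and EIF4A3 (0.55, adjusted p = 0.0131), and 3 lower. Of all tested genes 18.5% were higher and 19% lower there. Of 8 messages known as decay substrates, GADD45A was higher with TP-0903 (1.73, adjusted p = 0.00781) and ATF4 lower (-0.90, adjusted p = 0.0151). With the AXL hairpin 4 of the 8 were lower and none higher, led by DDIT3 (-3.13, adjusted p = 0.00462).

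Proteins that bind the members' RNAs or products were also followed. Of 13 snoRNA particle proteins, 3 were lower with TP-0903, FBL (-1.0, adjusted p = 0.00672, edgeR), NOP56 and DKC1 (-0.62, adjusted p = 0.0457), and 4 were higher and 1 lower with the AXL hairpin. NOP56 and DKC1 are also in the list of protein-coding hosts and were counted there too. Of 11 paraspeckle proteins, 3 were higher with the AXL hairpin, among them SFPQ (0.65, adjusted p = 0.0103, edgeR) and RBM14 (0.88, adjusted p = 0.0213). Another 3 were lower, HNRNPH3 (-0.74, adjusted p = 0.0078), HNRNPUL1 (-0.43, adjusted p = 0.0257) and NONO (-0.39, adjusted p = 0.0297). The shares of all tested genes were 18.5% higher and 19% lower. With TP-0903 none of the 11 was higher, and NONO (-0.46, adjusted p = 0.0414) and HNRNPH3 (-0.98, adjusted p = 0.00773) were lower. Of 14 nuclear speckle proteins, SRSF1, SRSF2, SRSF3 and SRSF7 were lower with TP-0903, with changes of -0.70 to -1.0, and 1 was higher and 1 lower with the AXL hairpin.

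A further list held long noncoding RNAs that are neither hosts nor members. Of 12 tested with TP-0903, 3 were higher and none lower: MEG3 (1.54, adjusted p = 0.0438, edgeR), LINC-PINT (0.91, adjusted p = 0.0153) and PVT1 (0.89, adjusted p = 0.0159). With the P number as a block H19 (-2.59, adjusted p = 2.21e-04) and OIP5-AS1 (-0.47, adjusted p = 0.038) were lower. With the AXL hairpin 2 were higher and 4 lower, where 18.5% of tested genes were higher and 19% lower. MEG3 had 208 and 356 CPM in AXL shRNA libraries, against 29.7 and 63.5 CPM in control shRNA libraries (2.60, adjusted p = 0.00282). NORAD, a cytoplasmic RNA that binds Pumilio proteins, had 115 and 92.2 CPM in AXL shRNA libraries, against 552 and 467 CPM in control shRNA libraries (-2.30, adjusted p = 3.67e-04).

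With the P number as a block more genes of these lists were called and none lost its call. With TP-0903 the genes called lower became 10 of 19 other long hosts, 20 of 36 protein-coding hosts, 5 of 14 messages with the pyrimidine tract, 5 of 14 decay factors, 3 of 8 decay substrates, 5 of 13 snoRNA particle proteins and 6 of 11 paraspeckle proteins, where 13.4% of tested genes were lower in that fit. With the AXL hairpin the genes called higher became 6 of 19 other long hosts, 7 of 36 protein-coding hosts, 2 of 14 messages with the tract, 7 of 13 particle proteins and 5 of 11 paraspeckle proteins, where 25.6% of tested genes were higher.

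**Figure D4:**
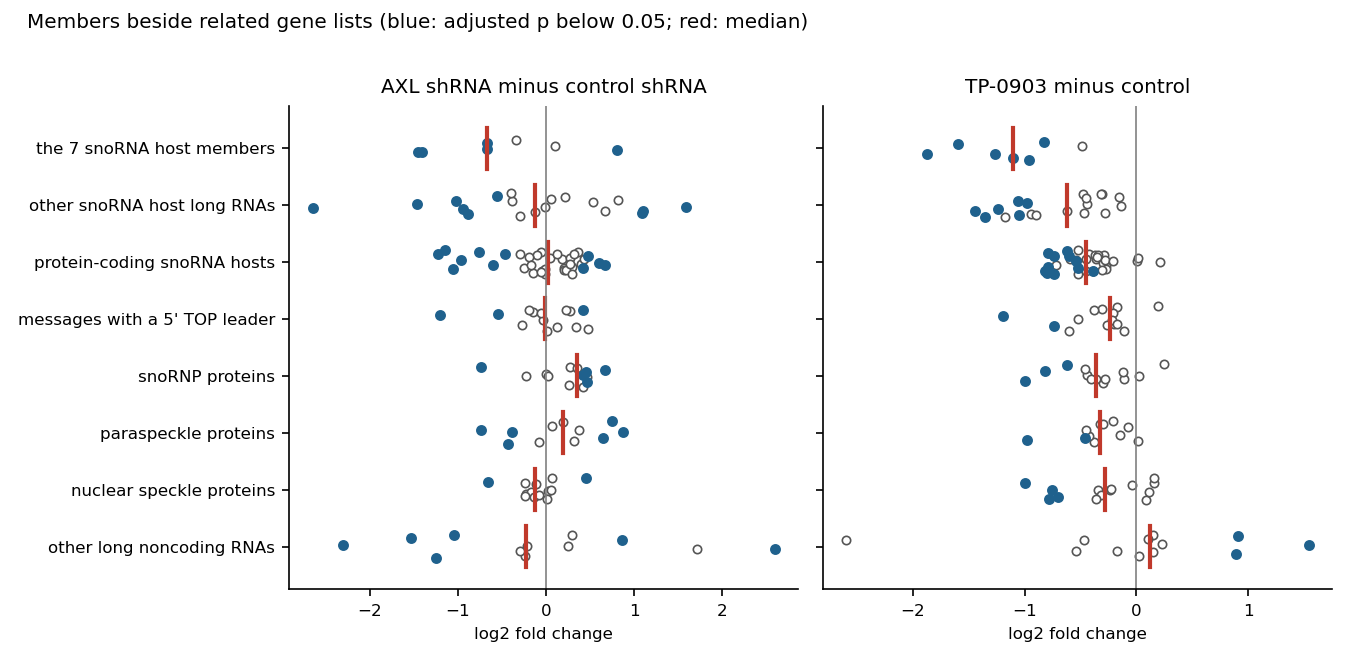
Log2 fold changes of the 7 hosts and of related gene lists, 1 point per gene, blue where the adjusted p was below 0.05, with the list's median in red. In the TP-0903 panel the medians run from -1.10 for the 7 hosts to 0.12 for other long noncoding RNAs, and in the AXL shRNA panel from -0.67 for the 7 hosts to 0.35 for snoRNA particle proteins.

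The genes most like each RNA over the 8 libraries were found by the root mean square difference of centred log2 CPM among the 11309 genes averaging 5 CPM or more, a description over libraries that share their groups. GAS5, ZFAS1 and SNHG8 found each other: ZFAS1 and SNHG8 differed by 0.23, and each differed from GAS5 by 0.30. The nearest gene to GAS5 was LRRC75A-AS1, at 0.23. MAT2A, a methionine adenosyltransferase, differed from ZFAS1 by 0.29. SNHG5 was nearest to ZFP36L2 (0.14) and to TPT1 (0.20), itself a snoRNA host. SNHG1 was nearest to H1F0 (0.30) and SNHG5 (0.33). SNHG6 was nearest to PATZ1 (0.14), SNHG12 to TPRN (0.12), MALAT1 to KIAA1671 and B2M (0.13 each), NEAT1 to ZBTB5 and TRIM14 (0.14 each), and KCNQ1OT1 to CDC42EP2 (0.22).

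Neighbouring genes did not all move with the RNAs. ZNFX1, which overlaps ZFAS1 by 249 bases on the opposite strand, changed by -0.02 with the AXL hairpin (adjusted p = 0.924, edgeR) and 0.39 with TP-0903 (adjusted p = 0.131, and 0.0167 with the P number as a block), while ZFAS1 was lower in both. SLC3A2, which starts 188 bases from SNHG1 on the opposite strand, had 682 and 710.1 CPM in TP-0903 libraries, against 837 and 931 CPM in control libraries (-0.35, adjusted p = 0.115, and 0.0494 with the block). ZBTB37, which overlaps GAS5 by 801 bases on the opposite strand, was lower with the AXL hairpin (-0.91, adjusted p = 0.0185).

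PRSS12, 215 bases from SNHG8 on the opposite strand, was higher with the AXL hairpin (2.25, adjusted p = 0.00835, edgeR), where SNHG8 was lower. FRMD8, a neighbour of NEAT1, was higher with the AXL hairpin, by 1.49 (adjusted p = 3.71e-04). No strand is stated for the libraries, so reads of overlapping partners such as ZFAS1 and ZNFX1, GAS5 and ZBTB37, SNHG6 and MCMDC2, or KCNQ1OT1 and KCNQ1 introns cannot be told apart where they overlap.

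The snoRNAs that these hosts carry were not measured in a usable way. GENCODE placed 18 snoRNA entries inside the spans of the 6 hosts other than GAS5. Of these, 13 were at 0 in all libraries, and the highest single value was 2.41 expected counts, for SNORD22 in SNHG1. No entry lay inside the span of GAS5, and 7 entries with symbols of its snoRNAs were at 0 in all libraries. Of all 943 snoRNA entries in the files, 844 were at 0 in all libraries. The values above therefore describe host transcripts and say nothing of snoRNA levels.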

How the data were processed

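RNA sequencing libraries of A549 cells were grouped by their titles into 4 groups of 2. According to the submitters' processing notes, the authors used STAR (2.5.3a), RSEM and GRCh38; no RSEM version or annotation is named. The deposited expected counts are estimated counts per gene without normalization. The deposited TPM were scaled by RSEM for length and depth. The deposited lengths, in bases, are means over a gene's transcripts weighted by their abundance. The deposited FPKM were not used. GENCODE release 29, which held 58039 of the 58302 gene IDs, gave positions and sequences.

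Counts were rounded, filtered (filterByExpr, 17676 genes), scaled by TMM and fitted in edgeR (4.0.16) by quasi-likelihood over all 8 libraries with 1 term per group (prior degrees of freedom 3.33, biological coefficient of variation 21.5%). Tests were two-sided, with Benjamini-Hochberg adjustment over all tested genes and a threshold of 0.05. The P number contrast had group and number (2 levels) as terms. The fit was tested on simulated data. Replicate libraries differed beyond counting error in 49.2% to 55.0% of genes.

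Same P numbers deviated together: across genes, deviations from group means correlated at 0.444 (AXL shRNA and control shRNA) and 0.450 (TP-0903 and control), against 0.171 to 0.309 where no number is shared. Libraries that share a number also come from the same hairpin or drug experiment, so number and experiment cannot be told apart here. The numbers were taken as pairs, 2 per comparison. A blocked value is printed where it alters a call of a member or named gene in a contrast described. It is also printed where it moves a list's count by over 1.5 times.

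Members and lists were chosen with earlier results of these data known. Named were all members, AXL, up to 3 genes of smallest p per list and comparison, lists of at most 6 genes, neighbours, and the genes most like each member; SNHG15, SNHG29, the 4 SRSF genes, TPT1, H19 and other list genes outside this rule were named after their values were seen. Alternatives were other scaling, no filter, DESeq2 (1.42.0), limma (3.58.1) with voom or on log2 TPM (pseudocount 1 or 0.1), effective lengths, the block, fewer libraries, each library left out and, added after seeing the data, control cells in place of control shRNA.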

Additional observations from a re-analysis of the deposited data

Results flagged for a closer look

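SNHG1 and SNHG12 stood out because the drug and the hairpin moved them differently under a direct test of the difference (TP-0903 effect minus AXL shRNA effect, edgeR). The difference was -1.96 for SNHG1, with a change of -1.87 with TP-0903 (both libraries below both controls) and of 0.10 with the AXL hairpin (overlapping groups). It was -1.30 for SNHG12, with a change of -0.49 with TP-0903 and of 0.81 with the AXL hairpin. Both effects are measured against separate controls, and for these RNAs control shRNA and control libraries did not differ past the threshold (0.17 for SNHG1 and 0.07 for SNHG12). No other measure of the 10 RNAs stood out in this way; with 2 libraries a group, outliers within groups could not be looked for.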

How the results depend on the processing

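Over the 10 RNAs and 5 comparisons, 760 values under an alternative kept direction and side of the threshold, 42 gained a call, 45 lost one and 33 changed sign. Groups of 2 limit what can be called: leaving out each library in turn left 3 to 6 members called (4489 to 6139 genes) with the AXL hairpin, 2 to 6 (487 to 1797) with TP-0903, 1 to 2 (1896 to 2744) for the difference, 1 to 5 (348 to 1301) for control shRNA against control, and 0 to 2 (110 to 685) for the P number. The cause of the changes below was not tested. KCNQ1OT1 had 15 to 130 expected counts per library and the widest SE of the 10.

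With the replicate block (P number) 4647 genes were called with TP-0903 and 6530 genes and 5 members for the difference. The block added MALAT1, NEAT1 and SNHG5 with the AXL hairpin and SNHG12 with TP-0903, and ended no member's call. With the P number in 2 levels the counts were 3340 genes with TP-0903, 5 members for the difference and 2968 genes for control shRNA against control.

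Without the filter, 3515 genes were called with TP-0903, 3352 for control shRNA against control and 1544 for the P number, with 5 members for the difference and 2 for the P number. DESeq2 called 2746 genes for control shRNA against control, and 1500 genes and 2 members for the P number. Only the 4 libraries of the comparison gave 705 genes for control shRNA against control. For the P number, DESeq2 size factors gave 1 member, limma-voom 2, TPM 126 genes (pseudocount 1) or 274 (0.1), effective lengths 576 genes, only the 4 shRNA libraries 416 genes and 1 member, and only the 4 libraries without shRNA 1419 genes and 3 members.

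With control in place of control shRNA, 2 members were called, and GAS5 (0.83), SNHG5 (0.42), SNHG6 (0.027), SNHG8 (0.20) and ZFAS1 (0.58) turned positive. With the AXL hairpin, NEAT1 turned to -0.77, -0.78 and -0.54 and SNHG1 to -0.30, -0.30 and -0.10 on TPM (pseudocounts 1 and 0.1) and with effective lengths. Leaving out a library moved SNHG1 between -0.11 and 0.33. In the difference, NEAT1 turned to 0.32, 0.32 and 0.13 under these 3 settings, and leaving out a library moved MALAT1 between -0.67 and 0.25 and SNHG8 between -0.53 and 0.27. The P number value of SNHG5 was 0.081 in the 4 shRNA libraries. With effective length in place of length, the log2 ratio of NEAT1 was 1.03, against 0.96.

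For control shRNA against control, values near 0 changed sign. MALAT1 was 0.0018 (DESeq2 size factors, and DESeq2) and 0.00039 (no filter). Leaving out a library moved MALAT1 between -0.48 and 0.36, NEAT1 between -0.12 and 0.30, SNHG1 between -0.068 and 0.40, and SNHG12 between -0.11 and 0.28. On TPM the median gene moved by -0.15 or -0.21 with the AXL hairpin and by 0.14 or 0.20 in the difference (pseudocounts 1 and 0.1).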

Other observations

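Together the 10 RNAs took 0.114% and 0.101% of all expected counts in TP-0903 libraries and 0.152% and 0.143% in control libraries. They took 0.241% and 0.158% in AXL shRNA libraries and 0.232% and 0.209% in control shRNA libraries.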
